A study of Mus musculus with 2 samples.

Results

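The cytosolic ribosomal protein genes were described as a module in open chromatin maps of mouse calf muscle. A gene belonged to the module if its symbol started with Rpl, Rps or Rplp followed by a digit or was Rpsa, with the Rps6k kinases and the symbols carrying -ps left out. The module was chosen with earlier results of these data known, but the rule itself used names and no measured value. It gave 86 of the 21829 protein-coding genes with at least 1 protein-coding transcript on the autosomes, X and Y in the mouse GENCODE annotation release M21 on build mm10. Of these, 52 were genes of the large ribosomal subunit, 33 of the small subunit, and Rps19bp1 encodes a binding protein of Rps19 that is not itself a ribosomal protein. Fau, which encodes a small-subunit protein made as a fusion to a ubiquitin-like sequence, falls outside the naming rule and is given further on. Leaving out Rps19bp1 and 8 paralogous copies (Rpl3l, Rpl7l1, Rpl10l, Rpl22l1, Rpl36al, Rpl39l, Rps27l and Rps27rt) left 77 standard genes.

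Ribosomal proteins wrap and stabilise the ribosomal RNAs of both subunits, and each ribosome needs nearly all of them in equal numbers. Their genes are scattered over the genome, are read in almost every cell, and are short, with many introns that hold small nucleolar RNAs (snoRNAs), the guides of ribosomal RNA modification. Their mRNAs typically begin with a run of pyrimidines, the terminal oligopyrimidine or TOP tract, through which the kinase mTOR and the RNA-binding protein Larp1 control their translation. In skeletal muscle, ribosome content is one of the quantities tied to the capacity for protein synthesis and fibre growth.

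DNase-seq, in which the enzyme DNase I cuts accessible DNA, was performed on gastrocnemius tissue, the large calf muscle, of adult male mice aged 18 to 20 months. The mice were F1 hybrids labelled B6CASTF1/J, and reads from the parental alleles were not separated in the files. There was 1 group with 2 samples, biological replicates 1 and 2, which share a donor label but have separate biosample labels. Whether they came from separate animals is therefore not known, so every SD below is the spread between these samples only. No treatment, age or genotype was contrasted, and no p-value is given.

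Each replicate was represented by a list of peaks (131398 in replicate 1, 91567 in replicate 2) with a signal at each peak, and by a list of footprints (339656 and 234091), the short stretches within open DNA that were protected from cutting. The scale of the signal is not stated and the read depth is unknown, so each signal is given in the unit of its file and set only against others of its replicate. A percentile ranks a gene's strongest promoter peak among all genes with a promoter peak in that replicate. Promoters of 10 skeletal muscle fibre markers were open in replicate 1 and 9 of 10 in replicate 2, the exception being Myh4, the fast IIb myosin. In contrast, none of the 2 liver markers had a promoter peak in either replicate, and of 4 cardiac markers 1 had a peak in replicate 1 and none in replicate 2. The 9 muscle fibre markers open in both replicates all had a lower percentile in replicate 2. The step was small in Actn3 (79.3 and 79.0) and larger in Ckm (68.1 and 54.3) and Ttn (48.5 and 33.0), and its cause was not tested. A lower percentile in replicate 2 was not particular to these markers. Only 5445 of the 13627 protein-coding genes open in both replicates, and 28 of 83 such module genes, had a higher percentile there. All 3 fibroblast and all 3 endothelial markers had a promoter peak in both replicates, and what part other cell types have in the values below was not tested. In such bulk tissue, a change in the number of cells with an open site and a change in its openness per cell cannot be told apart.

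Nearly all promoters of the module were open. A peak lay within 1000 bp of an annotated start site for 83 of 86 genes (96.5%) in replicate 1, where 65.7% of all protein-coding genes had one, and for 84 of 86 (97.7%) in replicate 2, where 63.6% had one. The mean share was 97.1% ± 0.822 (SD, n = 2). In both replicates together, 83 genes were open, against 62.4% of all genes. The 77 standard genes were open without exception in both replicates. This high share was not particular to the cytosolic ribosome: 78 of 78 mitochondrial ribosomal protein genes and 38 of 40 proteasome subunit genes were open in each replicate.

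Promoter signals of the module were above the genome-wide middle. The median signal of its open genes was 5.85 in replicate 1 and 6.02 in replicate 2, where the medians over all genes with a promoter peak were 3.16 and 3.41. In ranks, the median percentile was 77.7 and 75.7. By comparison, the mitochondrial ribosomal protein genes had median signals of 4.15 and 4.26 (percentiles 61.6 and 59.4), and the proteasome genes had 5.25 and 4.67 (percentiles 72.3 and 63.7). The module was also spread out. In both replicates, 69 genes were above the middle of all open genes, 42 were above the percentile of 75 and 18 above that of 90, while 11 were below the middle. Small-subunit genes had medians of 5.96 and 6.31 and large-subunit genes 5.58 and 5.96, with ranges that overlapped almost entirely.

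**Figure D1:**
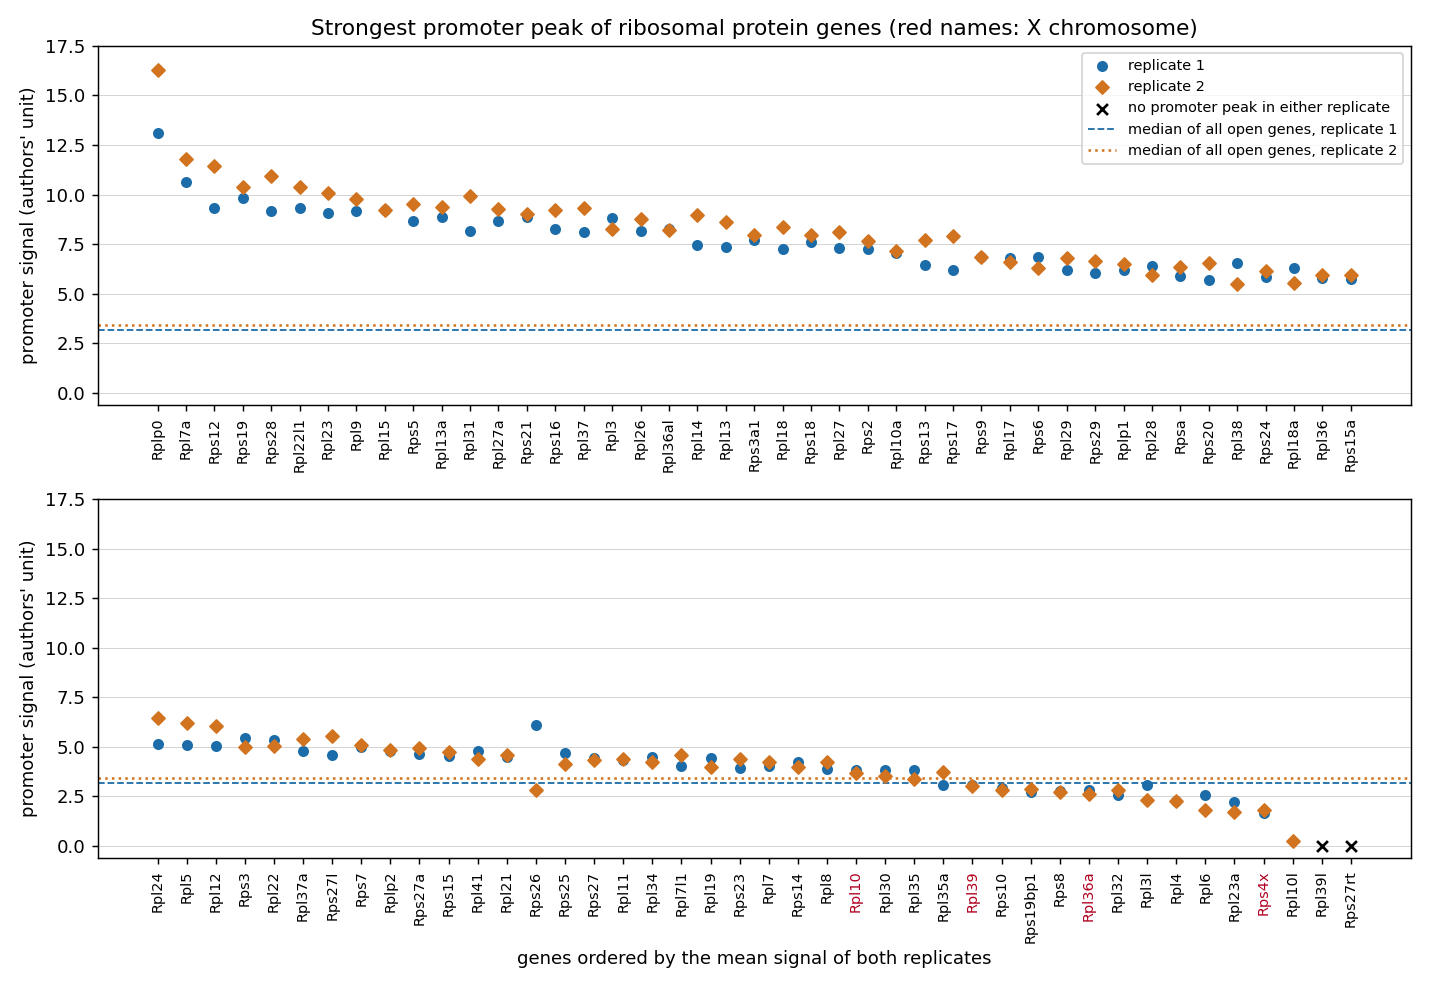
Signal of the strongest promoter peak for 85 of the 86 genes, with 1 not shown (vertical axis, authors' unit, linear) in replicate 1 (circles) and replicate 2 (diamonds), with dashed and dotted lines at the medians of all open genes (3.16 and 3.41). Genes are ordered by mean signal, crosses at 0 mark the 2 genes without a peak, and the 4 X-linked genes, named in red, all lie in the lower row.

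The summed length of open DNA was shorter in the module than over all genes, whereas the strongest peak itself was not narrower. Its median width was 220 bp in each replicate for the module and for all open genes alike. The median length of open DNA in the promoter windows was 280 bp in replicate 1 and 260 bp in replicate 2 for the module, but 412 bp and 380 bp for all open genes. A single peak made up the open promoter of 53.0% and 67.9% of the open module genes, compared with 38.0% and 44.0% of all open genes. Open length was as short in mitochondrial ribosomal protein genes (260 and 240 bp). As a share of the promoter window the gap was smaller, with medians of 12.0% and 11.5% in the module and 13.6% and 12.6% over all open genes. Peaks beyond the promoter but within the gene were found in 14.0% and 11.6% of module genes, against 50.8% and 42.5% of all genes and 33.3% and 25.6% of mitochondrial ribosomal protein genes. In 73 of 86 module genes there were none in either replicate and in 9 they were present in both. The median gene length was 3328.5 bp in the module and 17385 bp over all genes.

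**Figure D2:**
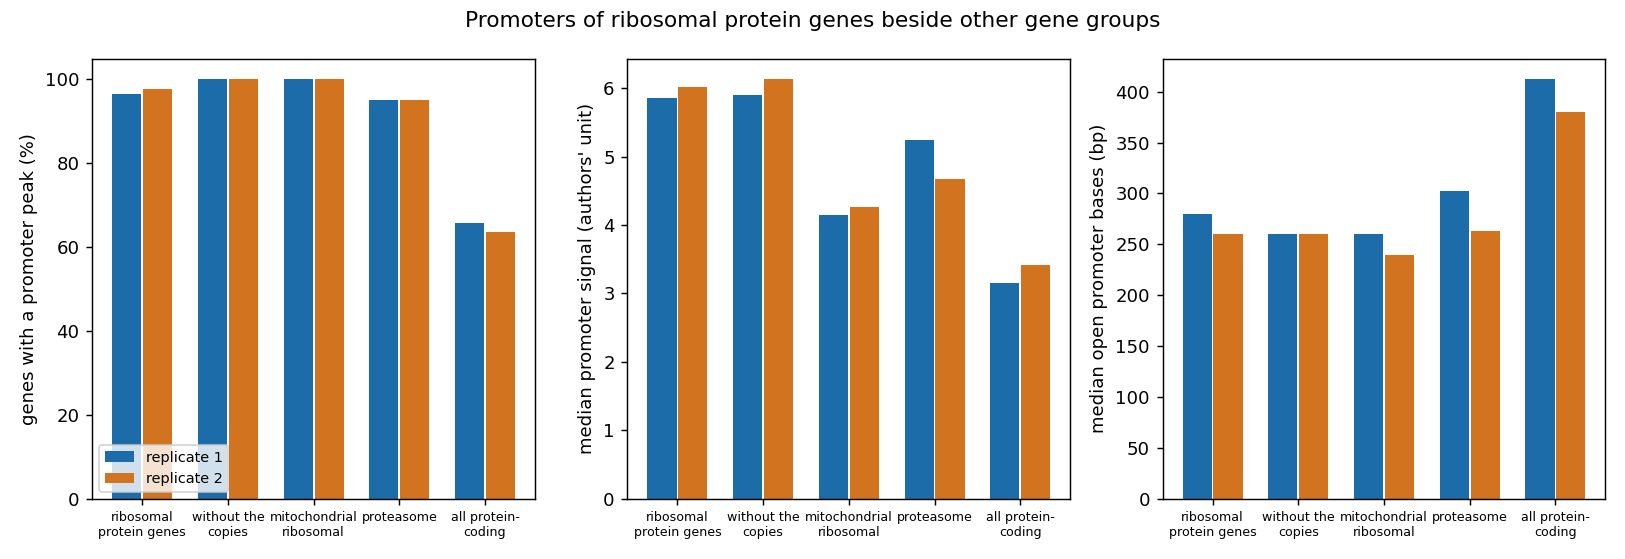
Bars give, for replicate 1 (blue) and replicate 2 (orange), the share of genes with a promoter peak, the median promoter signal and the median number of open promoter bases, for the module, its standard genes, mitochondrial ribosomal protein genes, proteasome genes and all protein-coding genes. Signal is higher (5.85 and 6.02 against 3.16 and 3.41) and open length is shorter in the module than over all genes.

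The open DNA lay at the start sites more often than over all genes. The strongest peak covered the reference start site, that of the principal transcript, in 77.1% of open module genes in replicate 1 and 79.8% in replicate 2, against 58.2% and 59.4% of all open genes. The shares were higher still for mitochondrial ribosomal protein genes (85.9% and 83.3%) and proteasome genes (84.2% and 81.6%). The peak centres lay at a median of -13.5 bp and -9.5 bp from it. In a profile of the 83 genes open in both replicates, peak coverage reached 87.2% and 86.3% of genes just upstream of the start, against 73.6% and 71.7% for the 13627 genes open in both replicates. Footprint coverage was higher as well. In its highest single bin it reached 40.5% at -55 bp in replicate 1 and 38.3% at 15 bp after the start in replicate 2. Over all genes open in both replicates the highest bins reached 28.9% and 27.6%, but single bins vary more over 83 genes than over 13627. Footprints per 100 bp of the strongest peak numbered 2.11 and 1.98 in the module and 1.88 and 1.76 over genes open in both replicates. This density was not particular to the module, as mitochondrial ribosomal protein genes had 2.17 and 2.04. In 14 module genes the strongest peak missed the reference start in both replicates. In Rpl18 it lay at another annotated start, 2583.5 bp downstream, with signals of 7.24 and 8.36, beside 6.15 and 6.24 for the peak at the reference start, and it was shared with a start site of Sphk2.

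**Figure D3:**
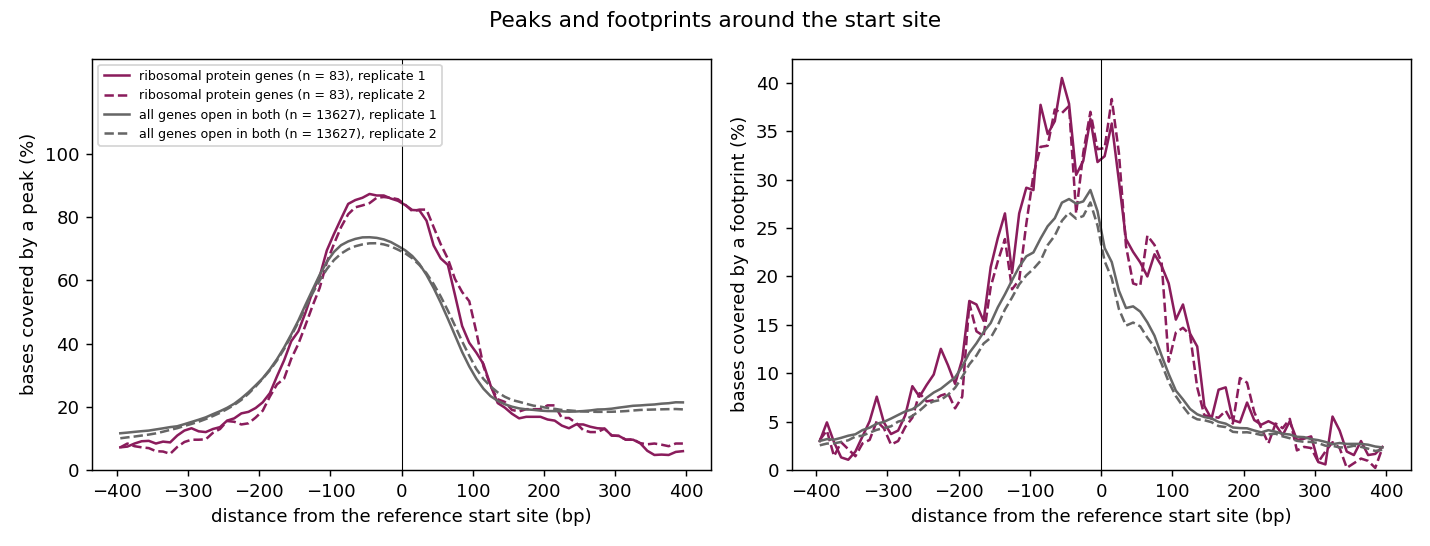
Percentage of bases covered by a peak (left) and by a footprint (right) in bins of 10 bp around the reference start site, for the 83 ribosomal protein genes open in both replicates and all 13627 such genes. Solid lines are replicate 1 and dashed lines replicate 2; footprint coverage of the module reaches 40.5% and 38.3%, above the 28.9% and 27.6% of all genes.

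Sequence around the start sites was read from the RefSeq copy of GRCm38.p6, the assembly of mm10, from 250 bp before to 50 bp after each reference start, and searched on both strands for 14 short motifs. A match describes letters, not a bound factor. The motif with the highest share in the module relative to all genes was TCTCGCGA, the core of the palindromic element recognised by the DNA-binding protein BANP, which acts at CpG-rich promoters of genes active in most tissues. It was found in 14 of 86 genes (16.3%), in 1.39% of all genes and in 2.07% of the genes open in both replicates. By contrast, 2 of the 78 mitochondrial ribosomal protein genes (2.56%) held it. Of the 14 genes, 7 carried the full palindrome, the core followed by GA, and 12 had the core within 100 bp of the start.

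The stretches of 5 of these genes are shown because they carry the element at both ends of the signal range, with the element in capitals, each 5′ to 3′ on the strand of its gene, at positions counted from the reference start without a 0.
Rps28 (chr17:33824541-33824578, minus strand, from -16 to 22): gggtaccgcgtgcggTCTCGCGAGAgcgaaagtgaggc
Rpl26 (chr11:68901525-68901562, plus strand, from -58 to -21): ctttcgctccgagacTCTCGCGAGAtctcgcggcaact
Rpl7a (chr2:26910740-26910777, plus strand, from -24 to 14): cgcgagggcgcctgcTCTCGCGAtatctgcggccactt
Rps19 (chr7:24884135-24884172, plus strand, from -236 to -199): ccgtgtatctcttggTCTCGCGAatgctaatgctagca
Rpl23a (chr11:78183592-78183629, minus strand, from -45 to -8): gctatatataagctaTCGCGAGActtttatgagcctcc
In Rps28 and Rpl26 the whole palindrome is present, in Rpl7a and Rps19 the core reads along the gene, and in Rpl23a it reads on the opposite strand.

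A footprint overlapped the element in both replicates in 11 of the 14 genes. Over all genes open in both replicates that carry it, this share was 72.3% (204 of 282). The exceptions were Rps19, whose element at -221 had no footprint in either replicate, Rpl4, with one in replicate 1 only, and Rpl27a, with one in replicate 2 only. The 14 genes had median signals of 7.38 and 7.92, and the 72 others 5.36 and 5.52 among those open. Of the 14, 12 were above the percentile of 75 in both replicates. The remaining genes, Rpl4 and Rpl23a, were among the 5 lowest open genes of the module.

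The ETS motif CCGGAAG was found in 26 module genes (30.2%), in 11.1% of all genes and in 16.3% of genes open in both replicates. Mitochondrial ribosomal protein genes held it more often (37.2%). It was covered by a footprint in 15 genes in each replicate (17.4%) and in 14 in both (16.3%), against 7.35% of genes open in both replicates. These counts need an overlap of 1 bp, and with the motif wholly inside a footprint the mean share was 8.72% ± 5.76 (SD, n = 2). Among genes open in both replicates with the motif, 45.1% had a footprint over it in both. Together, ETS or BANP letters were present in 35 module genes and both in 5 of them. The ZNF143/THAP11 motif ACTACAA was present in 11 genes (12.8%, against 4.07% of genes open in both), 3 of which (Rpl7, Rps9 and Rps26) had a footprint over it in both replicates. Of the genes open in both replicates with these letters, 35.6% (197 of 554) had one. Among mitochondrial ribosomal protein genes, 7.69% held the ZNF143/THAP11 letters.

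Shares of the other motifs lay on both sides of those over all genes open in both replicates. They were higher in the module for YY1 (6 genes, 6.98% against 4.26%) and CRE (5 genes, 5.81% against 3.37%). Mitochondrial ribosomal protein genes held YY1 more often (14.1%). Shares were near those of open genes for the general E-box (9 genes, 10.5% against 9.65%), MEF2 (3 genes, 3.49% against 3.001%) and AP-1 (3 genes, 3.49% against 3.32%). The same held for TEAD (9 genes, 10.5% against 11.8%), and NRF1 was in only 2 genes (2.33% against 3.47%). GGGCGG, the SP/KLF box, was in 52.3% against 62.8%, and CCAAT, the NFY box, in 30.2% against 37.8%. CAGCTG, the E-box form preferred by myogenic factors such as MyoD, was in 5 module genes (5.81%) against 15.2%. The TATA box TATAAA in the 50 bp before the start was in 0 of 86 genes, against 1.49%. In 9 module genes (10.5%) none of the 14 motifs was present, near the 9.47% of genes open in both replicates, among them Rps12, whose promoter signal was the fourth in rank within the module.

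**Figure D4:**
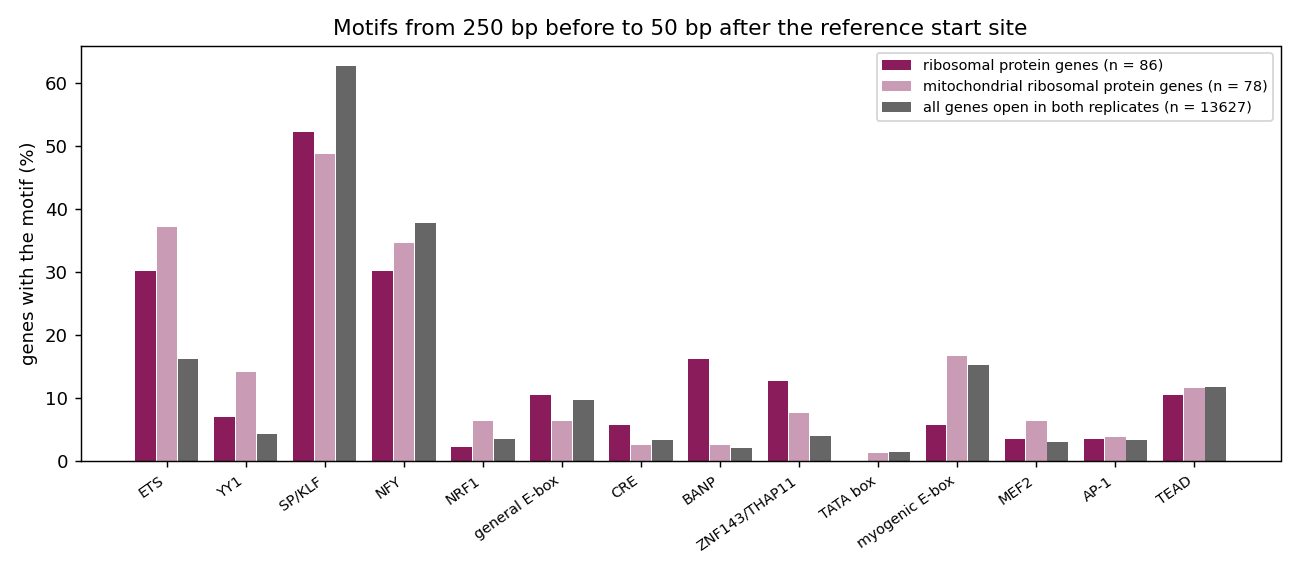
Share of genes (vertical axis, percent) with each of the 14 motifs, on both strands from 250 bp before to 50 bp after the reference start (TATA box on the sense strand in the 50 bp before the start), for the module, mitochondrial ribosomal protein genes and all genes open in both replicates. The BANP bar of the module (16.3%) stands beside 2.56% and 2.07%, while the myogenic E-box bar (5.81%) is below the 15.2% of all open genes.

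TOP tracts, scored as a C followed by at least 4 pyrimidines on the sense strand, started exactly at the reference start in 9 genes (10.5%, against 2.27% of all genes). Within 20 bp of the start the shares were 67.4% and 49.2%, a smaller contrast. Mitochondrial ribosomal protein genes lay between, with 5.13% at the start and 59.0% within 20 bp. The sequences of 2 of the 9 genes show tracts at a weakly open and a closed promoter, with the tract in capitals and positions from -25 to 15.
Rpl4 (chr9:64173350-64173389, plus strand): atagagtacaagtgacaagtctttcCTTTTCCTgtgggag
Rps27rt (chr9:114982725-114982764, minus strand): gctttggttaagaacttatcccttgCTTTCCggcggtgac
Rps27rt kept a tract at its annotated start although no peak was found there, whereas the other 8 genes with such a tract were open in both replicates.

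Among single genes, the stalk protein gene Rplp0 (ENSMUSG00000067274.10, chr5:115559467-115563727) had the highest signal of the module, 13.1 in replicate 1 and 16.3 in replicate 2. Its percentiles among all open genes were 99.7 and 99.9. Rplp0 is the base of the ribosomal stalk, to which the acidic proteins Rplp1 and Rplp2 attach and which recruits elongation factors. The partner genes were lower, with 6.18 and 6.51 for Rplp1 and 4.79 and 4.85 for Rplp2. The peak of Rplp0 spanned the same 220 bp in both replicates (chr5:115559281-115559500) and held 6 footprints in each. The 150 bases before its start are given with the bases inside a footprint in both replicates in capitals.
Rplp0 (chr5:115559317-115559466, plus strand, from -150 to -1): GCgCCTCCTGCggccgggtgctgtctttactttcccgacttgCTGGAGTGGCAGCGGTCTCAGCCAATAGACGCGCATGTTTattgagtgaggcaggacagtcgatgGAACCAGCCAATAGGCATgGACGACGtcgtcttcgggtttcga
In total 75 of these bases were footprinted in both replicates, and both CCAAT boxes, starting at -87 and -36, lay wholly within them.

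Of the genes that complete the 10 highest by mean percentile, 8 are given here. Rpl7a, a large-subunit protein gene whose introns hold 3 snoRNAs, had 10.7 and 11.8. Rps12, which sits in the beak of the small subunit, had 9.35 and 11.4. These were followed by Rps19, the small-subunit gene whose human counterpart is the most often mutated in Diamond-Blackfan anaemia, with 9.83 and 10.4. Those values of Rps19 belong to a peak upstream that covered no annotated start. The peak over the reference start of Rps19 had 6.72 in replicate 1 and 5.98 in replicate 2. Rps28 came next with 9.16 and 10.96. The last of the 10 were Rpl22l1, Rpl23, Rpl9 and Rpl15, with signals from 9.07 to 9.31 in replicate 1 and from 9.21 to 10.4 in replicate 2. All 10 were above the percentile of 90 in both replicates, and the order among them changed between replicates. The peaks of Rpl7a, Rps28, Rpl9 and Rpl15 also lay within 1000 bp of a start site of another gene (Med22, Ndufa7, Lias and Nkiras1), so those signals belong to shared regions. Such sharing held for 14 of 83 open module genes in replicate 1 (16.9%) and 15 of 84 in replicate 2 (17.9%), near the 18.2% and 18.3% of the genes open in both replicates. The sharing module genes had median percentiles of 78.7 and 76.1 and the others 77.7 and 75.3.

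At the low end, the 5 standard or copy genes open in both replicates with the lowest ranks were Rps4x, Rpl23a, Rpl6, Rpl4 and Rpl3l. Rps4x, the X-linked small-subunit gene, had signals of 1.67 and 1.83 (percentiles 30.2 and 29.3). Rpl23a, whose protein lies at the exit of the nascent peptide tunnel, had 2.23 and 1.69. Rpl6 had 2.56 and 1.82. Rpl4, whose protein lines the tunnel and whose introns hold 5 snoRNAs, the most in the module, had 2.28 and 2.25 at a peak upstream that was shared with Zwilch. The peak over its own start had 1.62 and 1.43, less than the peak of Rps4x. In all of these except Rpl3l the ranks stayed under the percentile of 43 in both replicates, with open DNA at the promoter nonetheless.

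All 4 X-linked genes were in the lower part of the module. Rpl10, whose protein joins the large subunit late in its assembly, had 3.82 and 3.67. Rpl39, a small protein of the exit tunnel, had 3.06 and 3.002, and Rpl36a had 2.84 and 2.63. The median of the X-linked standard genes over that of the 73 autosomal ones was 0.482 in replicate 1 and 0.448 in replicate 2. Males carry a single X, and over all genes open in both replicates the corresponding ratio was 0.490 and 0.518 (432 X-linked genes). The ratios for the module and for all open genes were thus of like size, on 4 X-linked genes, and their difference was not tested. Low values were not limited to the X chromosome, as the autosomal Rpl23a, Rpl6 and Rpl4 were below Rpl10 in both replicates.

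Copies of ribosomal protein genes differed from each other. Both Rpl39l (ENSMUSG00000039209.12, chr16:10170226-10174911) and Rps27rt (ENSMUSG00000050621.7, chr9:114982366-114982739) had no promoter peak and no promoter footprint in either replicate, nor any promoter interval with a false discovery rate under 0.05. Rpl39l is known for expression in the testis, and Rps27rt has the form of a retrotransposed copy. The copy Rpl10l, which stands in for Rpl10 in male germ cells, had no peak in replicate 1 and a peak of 60 bp with a signal of 0.240 in replicate 2 (percentile 0.371), 370.5 bp downstream of its start. The lowest rate over its promoter there was 0.0358. Their parents Rpl39, Rps27 (4.44 and 4.33) and Rpl10 were open in both replicates. Among 294 annotated ribosomal protein pseudogenes, 17 (5.78%) and 15 (5.10%) had a peak within 1000 bp of their start, with median signals of 0.832 and 0.833.

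Other copies were open. Rpl22l1, with 9.31 and 10.4, was above its parent Rpl22 (5.36 and 5.02), and Rpl36al, with 8.28 and 8.20, was above the X-linked Rpl36a, although its peak also lay near the start of Mgat2. Rpl7l1 (4.01 and 4.56) and Rpl7 (4.02 and 4.23) lay side by side. The p53 target Rps27l, with 4.57 and 5.56, was slightly above Rps27. These pairs were compared within each replicate, and the order was the same in both replicates for Rpl22l1, Rpl36al and Rps27l but not for Rpl7l1. The gene named for a binding protein, Rps19bp1, had 2.74 and 2.90, below the median of all open genes in both replicates.

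Rpl3l (ENSMUSG00000002500.15, chr17:24727820-24736143) is the paralog of Rpl3 that is restricted to striated muscle, where it takes the place of Rpl3 in part of the ribosomes. Its promoter signal was 3.08 in replicate 1 and 2.30 in replicate 2 (percentiles 49.1 and 35.7), below the middle of all open genes. Rpl3 (ENSMUSG00000060036.14, chr15:80077791-80091868), whose protein reaches towards the peptidyl transferase centre, had 8.82 and 8.28 in the same tissue. The strongest promoter peak of Rpl3l was not at its reference start but at the annotated start at position 24732685 (chr17:24732441-24732780 in replicate 1). At the reference start the peak had 2.56 and 1.71. Further promoter peaks of lower signal, from 0.518 to 0.711, were present in replicate 1 only. Just past the end of Rpl3l lay a peak with 8.15 and 8.61, at the start of its neighbour Msrb1, a methionine sulfoxide reductase gene. Msrb1 was added after its values were seen, and its peak does not count as one of Rpl3l.

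The bases before the inner start of Rpl3l, with those footprinted in both replicates in capitals, are shown because this is the site of highest signal in the muscle-restricted gene.
Rpl3l (chr17:24732485-24732684, plus strand): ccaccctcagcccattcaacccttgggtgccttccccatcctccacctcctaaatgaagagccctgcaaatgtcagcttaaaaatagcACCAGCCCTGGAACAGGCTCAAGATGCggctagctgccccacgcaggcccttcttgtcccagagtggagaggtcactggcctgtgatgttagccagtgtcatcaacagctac
The footprinted stretch is 27 bases long, and 1 base before it ends a match to the wider consensus of MEF2, a muscle transcription factor (chr17:24732562-24732571, starting at -123 from the inner start), which was not footprinted in both replicates. This consensus, read after the sequence was seen, is wider than the MEF2 form among the 14 motifs. It was present in 3 of 86 module genes (3.49%) and in 2.78% of all genes in the windows around the reference starts. At its reference start, Rpl3l was 1 of the 5 module genes with a myogenic E-box (CAGCTG). This E-box, at -14, was overlapped by a footprint in both replicates, which held for no other of the 5 genes. Of the genes open in both replicates with these letters, 13.4% (278 of 2078) had a footprint over them in both.

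**Figure D5:**
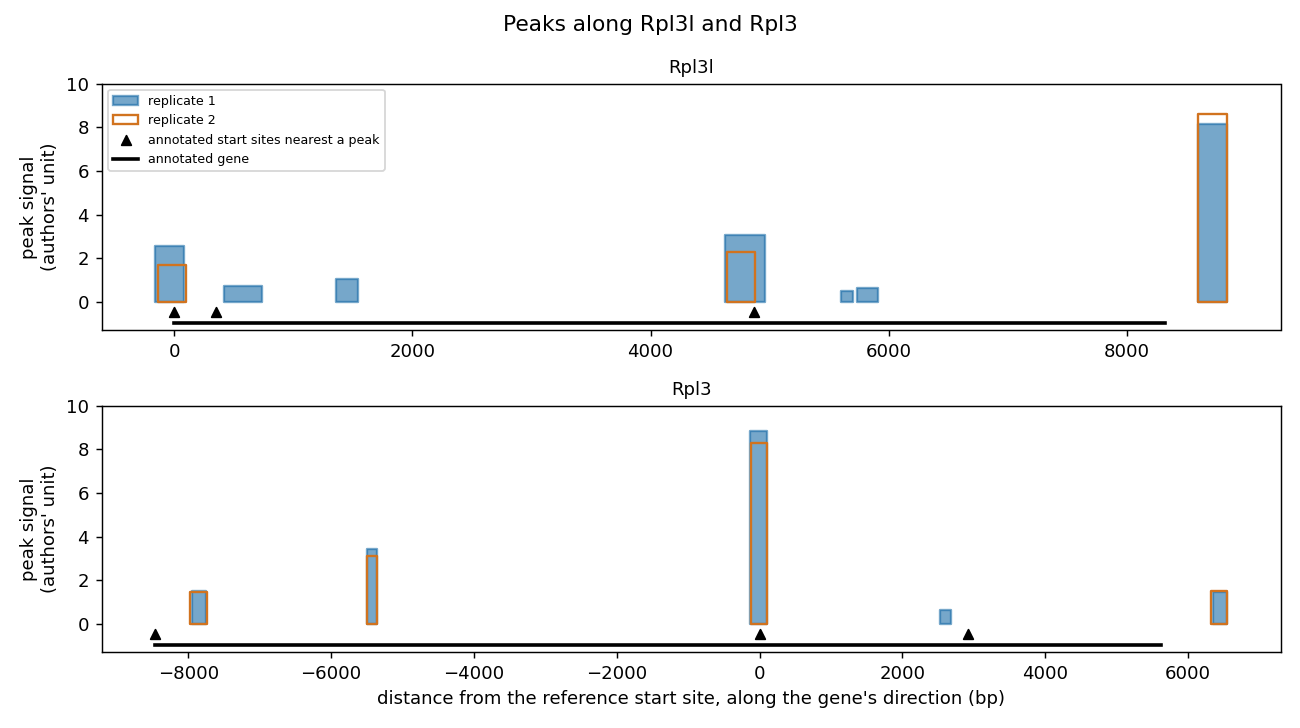
Peaks along Rpl3l (top) and Rpl3 (bottom) against distance from the reference start in the direction of the gene (bp), with peak signal as height (authors' unit, linear), filled for replicate 1 and outlined for replicate 2, start sites as triangles and the gene as a line. Rpl3l has modest peaks at its reference and inner starts (up to 3.08), the tall peak past its end lies at Msrb1, and Rpl3 has 8.82 and 8.28 at its reference start.

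Between replicates, the order of the module was largely kept. The Spearman correlation of signals across the 83 genes open in both was 0.962 (genes are not independent replicates), and it was 0.983 over the 13627 genes open in both, whose signals cover a wider range. The median absolute difference in percentile was 2.58 for the module and 2.98 for all. The strongest peaks overlapped between replicates in 82 of 83 genes (98.8%), against 95.4% of all genes open in both, and had identical ends in 34 (41.0% against 25.99%). The exception was Rpl7.

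Rps26 (ENSMUSG00000025362.6, chr10:128624534-128626747), whose protein contacts the mRNA at the exit channel of the small subunit, was the only module gene to move by more than 20 percentile points. Its signal was 6.12 in replicate 1 and 2.84 in replicate 2, and its percentile was 79.7 and 42.9. Such moves were seen in 73 of the 13627 genes (0.536%). Its peak had nearly the same place in both replicates (chr10:128626741-128626960 and chr10:128626761-128626960), and the adjacent peak 226.5 bp downstream of the start in replicate 1 had 2.46, beside 2.06 for its counterpart in replicate 2. The next largest differences were in Rpl6, Rpl3l, Rpl38, whose protein is known for its part in translating Hox mRNAs, and Rpl23a, which had lower percentiles in replicate 2 by 10.7 to 13.5 points. Signals of Rpl38 were 6.56 and 5.48. The cause of these differences was not tested.

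The 200 bases before the Rps26 start, in capitals where a footprint was found in both replicates, are shown because the footprint persisted where the signal differed.
Rps26 (chr10:128626748-128626947, minus strand, from -200 to -1): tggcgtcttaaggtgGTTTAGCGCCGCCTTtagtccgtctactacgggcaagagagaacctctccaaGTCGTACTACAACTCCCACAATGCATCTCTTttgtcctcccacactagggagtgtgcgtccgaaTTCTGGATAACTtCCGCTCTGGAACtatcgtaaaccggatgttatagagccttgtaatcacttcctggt
Of these bases, 70 were footprinted in both replicates, and the ZNF143/THAP11 letters ACTACAA at -128 lay wholly inside. Its promoter window held 6 footprints in replicate 1 and 7 in replicate 2.

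Footprint numbers per promoter had medians of 7 and 6.5 over the 86 genes, against 4 in each replicate over all genes and 7 in each over all genes with a promoter peak. The highest numbers were in Rps14 (25 and 18), Rpl7 (17 and 20), Rpl10 (14 and 14), Rps19 (9 and 17) and Rpl3l (19 and 6). Windows of several separate start sites add up in the counts of Rps14 and Rpl3l: the window of Rps14 was 6218 bp long and that of Rpl3l 4356 bp, against 2001 bp for a gene with a single start. Those of Rpl7 (2436 bp), Rpl10 (2168 bp) and Rps19 (2547 bp) were closer to a single window. The lowest numbers in genes open in both replicates were in Rps4x (5 and 2), Rpl17 (3 and 5), Rps3 (5 and 3) and Rpl11 (4 and 4), followed by a tie at a mean of 4.5 among Rpl13, Rps20 and Rpl36a. Rpl11, which together with Rpl5 restrains the p53 ligase Mdm2 when ribosome assembly fails, nevertheless ranked above the middle (4.35 and 4.39). Footprints in module promoters had a median length of 12 bp, against 10 bp over the whole list in each replicate. That list is not limited to promoters, and footprint length in other promoters was not measured.

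Genes that host snoRNAs ranked close to the others. The 30 host genes, with 58 of the 1507 annotated snoRNAs, were open in both replicates and had median signals of 6.11 and 6.44. The 56 genes without a snoRNA included the 3 copies that lacked a peak and had medians of 5.81 and 5.76 among those open. The gaps between these medians were small beside the spread of the module, whose interquartile range ran from 4.38 to 7.66 in replicate 1 and from 4.23 to 8.30 in replicate 2.

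Genes that work with the module were open without exception in both replicates in all 3 lists: 17 of the TOP and elongation list, 16 of ribosome biogenesis and 15 that control ribosomal protein synthesis. Of all protein-coding genes 62.4% were open in both, and the mitochondrial ribosomal protein genes were likewise all open. The TOP and elongation genes had median percentiles of 87.1 and 84.3. In that list, Fau had 7.89 and 8.69, while Rack1, a small-subunit scaffold protein, had 3.37 and 3.35. The elongation factor gene Eef1a1 (4.58 and 4.60) was above Eef1a2 (1.87 and 1.68), the form that replaces it in mature muscle, and Eef2 had 8.65 and 9.68. Biogenesis genes were nearer the middle, with median percentiles of 61.0 and 61.8, and the highest was Rrs1 (11.02 and 11.8), which acts in large-subunit assembly. In the control list (86.2 and 83.3), Maf1, a repressor of RNA polymerase III, had 10.6 and 12.7 and the S6 kinase gene Rps6kb1 10.3 and 12.2. Larp1, which binds TOP mRNAs, had 1.97 and 2.43, and Myc, an activator of ribosome synthesis, had 2.21 and 2.35.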

How the data were processed

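DNase-seq peak, site and footprint files of 2 gastrocnemius samples were analysed. The deposited peak lists hold, in column 7, the signal at each peak, in a unit that is not stated, and the larger list of each sample was used. In the deposited site files column 5, a p-value by type, gives false discovery rates below 0.05. In the deposited footprint files that column is 0.01 throughout, a threshold. Per the labels, the build is mm10, and the aligner and peak caller are not given in the sources used here. No peak ran past the end of a chromosome of the RefSeq GRCm38.p6 genome, from which sequences were read.

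Start sites were those of protein-coding transcripts in GENCODE M21. The reference start site was that of the transcript with the best APPRIS level, then transcript support level, then the most upstream. A promoter was the union of 1000 bp either side of all start sites, and a peak or footprint overlapping it by at least 1 bp was counted. The strongest peak gave the signal. Overlapping peaks were merged before open bases were summed. Motifs were searched as exact letters with at least 1 bp of footprint overlap. Beside the letters given in the text, those searched were AAGATGGC (YY1), CGCATGCG (NRF1), CACGTG (the general E-box), TGACGTCA (CRE), TGAGTCA (AP-1), GGAATG (TEAD) and a narrow form of the MEF2 site. A short motif may overlap another. With 1 group there was no contrast and no test, and values are given per replicate with the SD over both.

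The genes named were the 10 highest and 5 lowest by mean percentile, the 5 with the largest rank difference between replicates, those lacking a peak, the 5 with most and 5 with fewest footprints, the copies with their parents, and the stalk genes. Some items are not reported here. Other genes named were chosen after their values were seen. The module and the lists were chosen with earlier results of these data known. Marker lists not given in full above were those of macrophages (2 of 4 open in each replicate), germ cells (1 of 3) and neurons (2 of 2). Python 3.11.15, numpy 2.4.6, scipy 1.17.1 and pysam 0.24.0 were used, and the functions were checked on constructed input with known answers.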

Additional observations from a re-analysis of the deposited data

How the results depend on the processing

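No paired analysis was possible because no second group exists to pair with. In all, 60 values were recomputed for 8 results under 13 settings. Of these, 48 moved by less than the spread between replicates (for counts by at most 1.5 times, and for the rank correlation by less than 0.01). Values from leaving out a replicate are among the 48 by construction. Either of 2 values always lies within their SD of the mean, so these say nothing about stability. The share with a footprinted ETS motif was the same in both replicates, so its SD was 0 and any change in it counted as moved. The values that moved by more follow, and their causes were not tested. With the 77 standard genes, the open share was 100%, 0 genes lacked a peak in both replicates, and 19.5% had a footprinted ETS motif. The smaller peak list gave a median percentile of 75.01 and 250 open bases. With that list, 3 genes instead of 2 lacked a peak in both replicates, which is within the limit of 1.5 times and not counted as moved. Taking the peak closest to the reference start gave a median percentile of 79.1. Windows of 2500 bp gave 7.5 footprints and 291 open bases. Counting footprints inside peaks only gave a median of 5 footprints and 16.3% with a footprinted ETS motif, which was 15.1% for motifs within 100 bp of the start and 8.72% for motifs wholly inside a footprint. Leaving out a replicate gave ranges of 96.5% to 97.7% for the open share, 75.7 to 77.7 for the percentile, 6.5 to 7 for footprints, 260 to 280 for open bases, 77.1% to 79.8% for peaks over the reference start and 17.4% for the ETS share in each. The unknown depth and the 2 samples, possibly of 1 animal, limit what the values say about other mice.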
